A study of Mus musculus with 2 samples.

Results

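The proteasome subunits and the factors that build or cap the proteasome were examined in sorted mouse CD4+ T cells. Members were all genes whose symbol starts with Psm, a letter from a to g and a digit, taken from probe sets that the platform annotation pairs with exactly 1 symbol. A probe set is a group of short array probes for 1 transcript. The rule found 49 genes on 103 probe sets, out of 18193 genes on 34945 probe sets in the whole series. Of these, 47 genes on 100 probe sets code for subunits, activators, an inhibitor or assembly chaperones. The remaining matches, Psmc3ip and Psme3ip1, are named after proteins they bind and are not subunits. They were kept apart. Psme2, a subunit of the interferon-inducible activator, shares its probe set with Psme2b and was not analysed here.

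RNA came from CD4+ cells of DEREG mice, a transgenic strain in which the Foxp3 promoter drives green fluorescent protein (GFP), fused to a receptor for diphtheria toxin, so that GFP reports the transgene and not the Foxp3 protein itself. One array held GFP-positive, FoxP3-positive cells and the other held GFP-negative, FoxP3-negative cells of the same strain, and both populations therefore carried the transgene. CD4+ cells were enriched by negative selection before the sort, whose stated purity is above 99%. With 1 array per group no difference could be tested, no spread between animals is known, and every comparison is between these 2 arrays. Neither the organ nor the mice's age, number or treatment is given in the sources used here. In such bulk RNA, fewer cells of a type and less RNA per cell cannot be told apart.

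The proteasome is the cell's main machine for breaking down proteins tagged with ubiquitin. Its barrel-shaped 20S core has outer rings of alpha subunits, which form the gate, and inner rings of beta subunits, some of which cut the substrate. A 19S regulatory particle binds, unfolds and feeds the substrate into the core. Immune cells, T cells among them, also make an immunoproteasome, in which Psmb8, Psmb9 and Psmb10 replace the cutting subunits Psmb5, Psmb6 and Psmb7 and whose peptides suit presentation by MHC class I. In regulatory T cells, ubiquitin ligases and proteasomal turnover are known to control the amount of Foxp3 protein.

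Markers of regulatory T cells differed between the arrays in the direction of the labels. The signal of Foxp3 was 504 on the GFP-positive array, against 173 on the GFP-negative array. All 7 regulatory T cell markers were higher in GFP-positive cells by 1.5-fold or more, where 8.76% of all genes were. All 8 measured CD4 T cell markers were above the signal floor of 63.16, which marks the level reached by genes of unrelated tissues. All 7 regulatory T cell markers were above it on the GFP-negative array too. Their median signal was 1218.6 in GFP-positive cells and 361.7 in GFP-negative cells. Of the CD4 T cell markers 3 were lower in GFP-positive cells by 1.5-fold or more, where 7.75% of all genes were, and 0 were higher. Cd4 itself had 256.5 in GFP-positive cells and 415 in GFP-negative cells, and Cd3e had 541 in GFP-positive cells and 862 in GFP-negative cells. Cd28 had 937 in GFP-positive cells and 1430 in GFP-negative cells, with a smaller gap (−0.21 log2) for its second probe set. The 3′ to 5′ signal ratio of Actb, which rises as RNA quality falls, was 5.30 in GFP-positive cells, against 3.57 in GFP-negative cells. For Gapdh this ratio was 9.27 in GFP-positive cells, against 6.24 in GFP-negative cells. The part of RNA quality in the results was not tested.

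Proteasome genes were expressed at nearly equal levels in GFP-positive and GFP-negative cells. Of the 47 genes, 45 were above the floor on both arrays. On these, 24 signals were higher and 21 lower in GFP-positive cells, and the median difference (log2 GFP-positive minus log2 GFP-negative, here and throughout) was 0.0027. The quartiles were −0.15 and 0.08, and the most extreme differences were −0.59 for Psmf1 and 0.65 for Psmg3. Summed over all 47 genes, the signal was 100395 in GFP-positive cells and 101008 in GFP-negative cells. Each gene has its own probes and the brightest weigh most, so this sum does not measure the total proteasome RNA. Over the 10231 genes of the whole array with 1 or 2 signals above the floor, the median difference was −0.01, with quartiles of −0.26 and 0.24.

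For 40 of the 45 proteasome genes above the floor (88.9%) the arrays lay within 0.32 log2 of each other, where 1 signal is at most 25% above the other, beside 60.0% of those 10231 genes. The gap depends on the probe set rule: with all probe sets of a gene averaged, dim ones included, the shares were 62.2% of proteasome genes and 58.7% of all genes. With averages of only the probe sets above the floor on both arrays, they were 82.2% of proteasome genes and 65.2% of all genes. Bright genes vary less on arrays, and proteasome genes are bright. Among the 2657 genes with signals above 500 on both arrays, 78.6% lay within 0.32 log2, and of the 38 proteasome genes that bright 36 did (94.7%). The standard deviation across genes was 0.17 for those 38 and 0.27 for the 2657. Past 1.5-fold, 2 of the 45 proteasome genes were higher in GFP-positive cells, where 8.76% of all genes were, and 1 was lower, where 7.75% of all genes were. None of the 38 bright ones passed 1.5-fold by its brightest probe set, against 1.62% of bright genes on the higher and 2.63% on the lower side. A second probe set of Psmb4, also above 500 on both arrays, did pass it, at 0.93. None of the 45 passed 2-fold in either direction, where 1.76% of all genes were higher and 1.71% lower. Genes are not independent replicates, so these shares describe the arrays and are not a test.

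**Figure D1:**
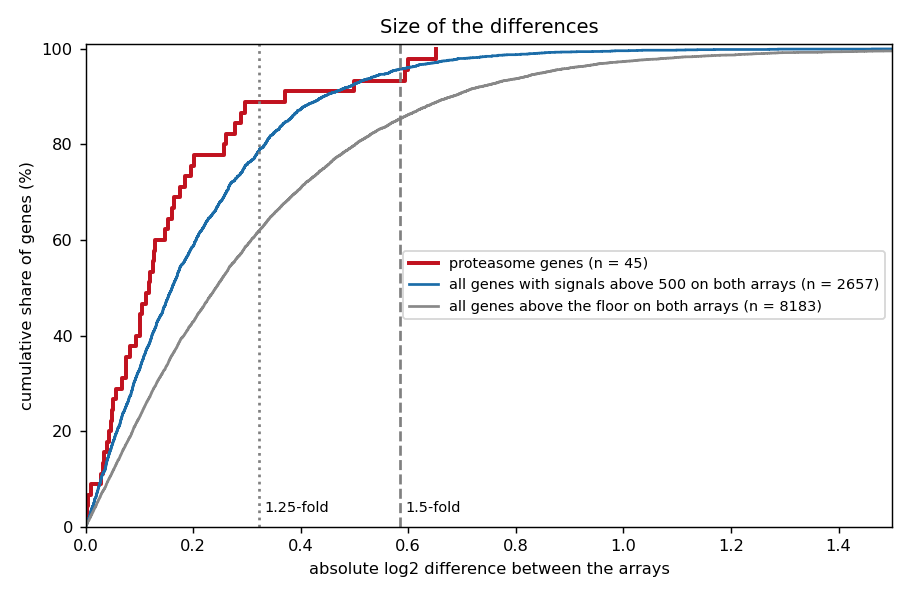
Cumulative share of genes (vertical axis, %) against the size of the log2 difference between the 2 arrays (horizontal axis), for the 45 proteasome genes above the floor, for 2657 genes with signals above 500 and for 8183 genes above the floor on both arrays. The proteasome curve reaches 88.9% at 0.32 log2 (dotted line) and lies above both other curves there.

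The alpha subunits form the outer rings of the core and the gate through which substrates enter. Psma1 had a signal of 2541 in GFP-positive cells and 2643 in GFP-negative cells, Psma2 had 7178 in GFP-positive cells and 7034 in GFP-negative cells, and Psma4 had 2785 in GFP-positive cells and 2779.9 in GFP-negative cells. Psma5 had 2985 in GFP-positive cells and 3241 in GFP-negative cells, and Psma6 had 4629 in GFP-positive cells and 4482 in GFP-negative cells. All 5 lay between −0.12 and 0.05 log2.

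The widest gaps among the alpha genes were those of Psma3 and Psma7. Psma3 had 6296 in GFP-positive cells, against 5497 in GFP-negative cells, a difference of 0.20. Psma7 had 993 in GFP-positive cells, against 1129 in GFP-negative cells, a difference of −0.19. All 7 alpha genes above the floor were within 0.32 log2, with a median of 0.0027. A further probe set of Psma7 went the other way at 0.51, and further probe sets of Psma3 (0.55) and Psma6 (0.23 and 0.51) gave larger positive differences than the brightest ones. Psma8, the alpha subunit of the testis proteasome, was below the floor on both arrays (3.0 in GFP-positive cells and 48.8 in GFP-negative cells).

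**Figure D2:**
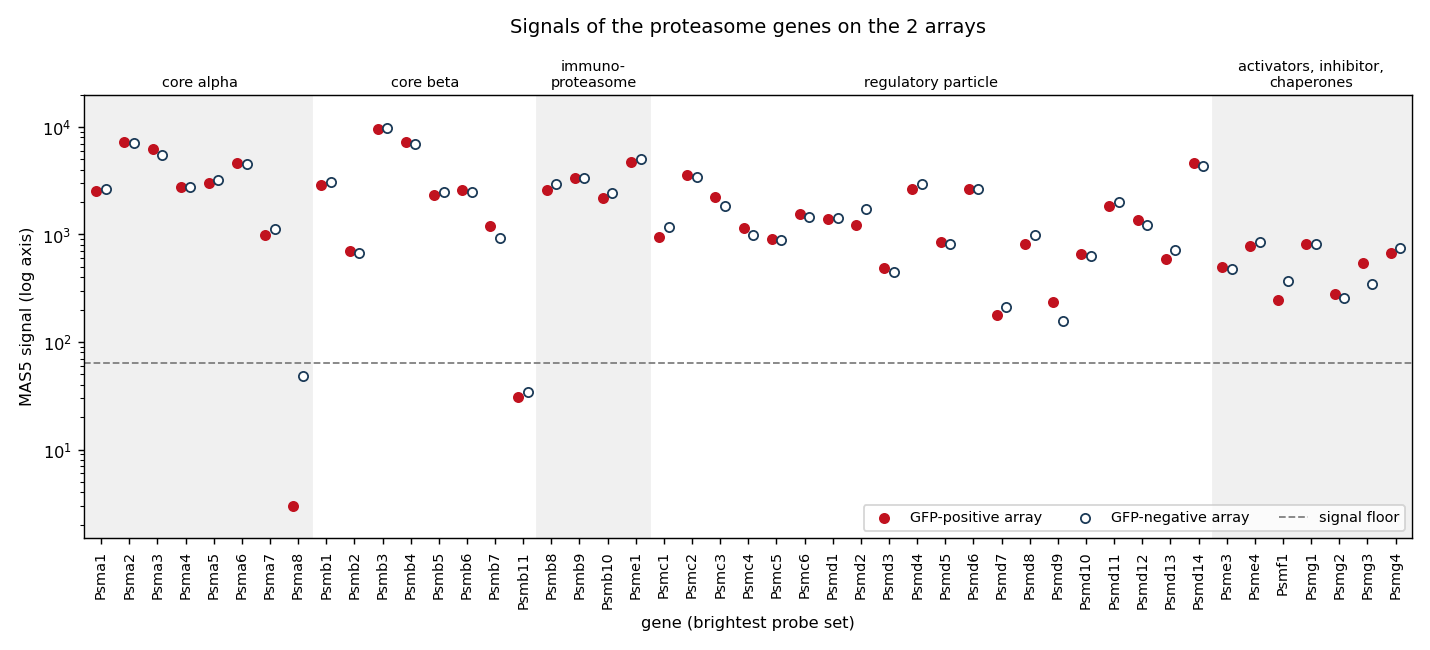
MAS5 signals (vertical axis, log scale) of the 47 proteasome genes, each by its brightest probe set, on the GFP-positive array (filled) and the GFP-negative array (open), grouped by role; the dashed line is the signal floor of 63.16. The paired points of the 45 genes above the floor lie close together in every group. Psma8 and Psmb11 are below it, and the points of Psma8 lie far apart there. Heights of different genes are not comparable, since each has its own probes.

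Among the beta subunits without a catalytic site, which complete the inner rings, differences were also small. Psmb1 had 2888 in GFP-positive cells and 3096 in GFP-negative cells, Psmb2 had 703 in GFP-positive cells and 667 in GFP-negative cells, and Psmb3 had 9503 in GFP-positive cells and 9831 in GFP-negative cells. Psmb4 had 7216 in GFP-positive cells and 6885 in GFP-negative cells. These 4 genes lay between −0.10 and 0.07 log2. The second probe set of Psmb4 differed from its first, with 1984 in GFP-positive cells and 1040.0 in GFP-negative cells, or 0.93 log2. Psmb11, the beta subunit of the thymus-specific proteasome of cortical epithelial cells, was below the floor (31 in GFP-positive cells and 34 in GFP-negative cells).

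The cutting subunits exist as standard and immuno versions, which makes 3 pairs. For the chymotrypsin-like site, immuno Psmb8 had 2610.2 in GFP-positive cells and 2918 in GFP-negative cells, and standard Psmb5 had 2332 in GFP-positive cells and 2502 in GFP-negative cells. Both were slightly lower in GFP-positive cells, at −0.16 for Psmb8 and −0.10 for Psmb5. For the caspase-like site, immuno Psmb9 had 3347 in GFP-positive cells and 3369 in GFP-negative cells, and standard Psmb6 had 2564 in GFP-positive cells and 2486 in GFP-negative cells, at −0.01 and 0.04. For the trypsin-like site, immuno Psmb10 had 2164 in GFP-positive cells and 2407 in GFP-negative cells, at −0.15. Its standard partner Psmb7 had 1209 in GFP-positive cells and 935 in GFP-negative cells, at 0.37 or 1.29-fold. Psmb7 was the core gene with the largest difference by its brightest probe set, and 15.4% of genes with signals above 500 differed by at least as much.

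The immuno minus standard difference of differences was −0.06 for Psmb8 and Psmb5, −0.05 for Psmb9 and Psmb6, and −0.52 for Psmb10 and Psmb7. It was negative for all 3 pairs, but small for the first and second. The further probe set of Psmb8 was below the floor (48.5 in GFP-positive cells and 25.9 in GFP-negative cells). Psme1, a subunit of the interferon-inducible activator that opens the core, had 4673 in GFP-positive cells and 5027 in GFP-negative cells, at −0.11. All 4 immunoproteasome genes measured were lower in GFP-positive cells as deposited, while Psmb9 turned to 0.02 after quantile normalization and 0.04 after loess, and the other 3 stayed below 0. The median of the 4 was −0.13, and each lay within 0.32 log2, as did 78.6% of bright genes, whose own median was −0.05.

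Promoter sequences of the chymotrypsin-like and caspase-like pairs are shown because the immuno genes are known to answer to interferon and the standard genes to proteasome shortage. Each run covers 110 bases before and 40 from the start site on, from RefSeq on build GRCm38.p6, 5′ to 3′ on the gene's strand. Psmb8 lies at chr17:34198085-34198234 (plus), Psmb5 at chr14:54617956-54618105 (minus), Psmb9 at chr17:34187291-34187440 (minus) and Psmb6 at chr11:70525247-70525396 (plus). Capitals mark matches, on either strand, to the core of the gamma-activated site (TTCNNNGAA) or of the antioxidant response element (TGACNNNGC, the type of site bound by Nfe2l1 and Nfe2l2).
Psmb8: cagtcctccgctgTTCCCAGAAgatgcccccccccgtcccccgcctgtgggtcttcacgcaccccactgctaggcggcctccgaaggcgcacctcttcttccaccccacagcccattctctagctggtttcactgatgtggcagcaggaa
Psmb5: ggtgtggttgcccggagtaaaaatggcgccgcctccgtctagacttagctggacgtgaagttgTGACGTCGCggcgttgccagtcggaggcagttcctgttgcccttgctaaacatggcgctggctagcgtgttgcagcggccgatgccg
Psmb9: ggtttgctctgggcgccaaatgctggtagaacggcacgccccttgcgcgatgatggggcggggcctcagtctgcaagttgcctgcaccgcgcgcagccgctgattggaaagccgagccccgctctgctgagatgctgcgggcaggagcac
Psmb6: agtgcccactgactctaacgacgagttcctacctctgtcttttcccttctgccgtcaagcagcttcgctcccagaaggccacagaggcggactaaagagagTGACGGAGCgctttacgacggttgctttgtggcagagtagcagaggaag

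In windows of 300 bases around the start, TGACNNNGC was found in 6 of 41 windows of 39 proteasome genes (14.6%) and in 12.4% of 32544 windows of all genes. TTCNNNGAA was found in 3 of 41 proteasome windows (7.32%) and in 8.33% of all windows. A further pattern, GAAANNGAA, part of the interferon-stimulated response element, was found in 7 of 41 proteasome windows (17.1%) and in 8.53% of all windows. Overlapping matches of different patterns were counted for each. The immunoproteasome genes had 1 match to TTCNNNGAA, in Psmb8, and 1 to GAAANNGAA, in Psme1, over their 4 windows. A match is a stretch of letters and not a binding site.

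The regulatory particle has a base, whose ATPases unfold substrates, and a lid, which removes ubiquitin. All 20 genes grouped with it, 3 assembly chaperones of the base included, were above the floor on both arrays. In GFP-positive cells 12 were higher, all 3 chaperones among them, and 8 lower, with a median of 0.04 and 18 within 0.32 log2. Of the 6 ATPase genes 5 were higher, with a median of 0.07. With averages of the probe sets above the floor on both arrays 2 of 6 were, and the median of all 20 genes was then −0.03. Psmc3 was the highest, with 2218 in GFP-positive cells and 1855 in GFP-negative cells (0.26), and Psmc4 had 1138 in GFP-positive cells and 989 in GFP-negative cells (0.20). Psmc1 went the other way, with 955 in GFP-positive cells and 1172 in GFP-negative cells (−0.30). The remaining ATPase genes were nearly level. Psmc2 had 3549.8 in GFP-positive cells and 3454 in GFP-negative cells (0.04), Psmc5 had 914 in GFP-positive cells and 893 in GFP-negative cells (0.03), and Psmc6 had 1548 in GFP-positive cells and 1451 in GFP-negative cells (0.09). Further probe sets of Psmc2 (−0.10), Psmc4 (−0.26) and Psmc6 (−0.18) had the opposite sign.

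The 3 non-ATPase base genes were lower in GFP-positive cells as deposited, but Psmd1 turned to 0.02 after quantile normalization and after loess. Psmd2, which codes for a large scaffold protein of the base, had 1223 in GFP-positive cells, against 1727 in GFP-negative cells. This 1.41-fold lower signal (−0.50) was the largest negative difference of a 26S subunit gene by its brightest probe set, and 7.53% of genes with signals above 500 differed by at least as much. Its further probe set was below the floor (12.1 in GFP-positive cells and 25.3 in GFP-negative cells). Psmd4, a ubiquitin receptor, had 2644 in GFP-positive cells and 2964 in GFP-negative cells (−0.16), and its further probe sets gave −0.14 and −0.67. Psmd1, the other large scaffold, had 1398 in GFP-positive cells and 1431 in GFP-negative cells (−0.03).

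Lid genes with Psm names split evenly, 4 higher and 4 lower, and all 8 were within 0.32 log2. Sem1, a lid subunit without such a name, lay higher at 0.38 and is counted with the cofactors below. Psmd14, the lid enzyme that cleaves ubiquitin chains off the substrate, had 4651 in GFP-positive cells and 4302.5 in GFP-negative cells (0.11). Psmd12 had 1349.9 in GFP-positive cells and 1237.5 in GFP-negative cells (0.13), Psmd3 had 483 in GFP-positive cells and 444.5 in GFP-negative cells (0.12), and Psmd6 had 2673 in GFP-positive cells and 2665 in GFP-negative cells (0.0043). The lower ones were Psmd13, with 593 in GFP-positive cells and 724 in GFP-negative cells (−0.29), Psmd8, with 824 in GFP-positive cells and 999 in GFP-negative cells (−0.28), and Psmd7, with 178 in GFP-positive cells and 213 in GFP-negative cells (−0.26). Psmd11 had 1832 in GFP-positive cells and 2002 in GFP-negative cells (−0.13). Its other 3 probe sets above the floor on both arrays were lower too, down to −0.54, which makes it the member with the most probe sets of one direction.

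**Figure D3:**
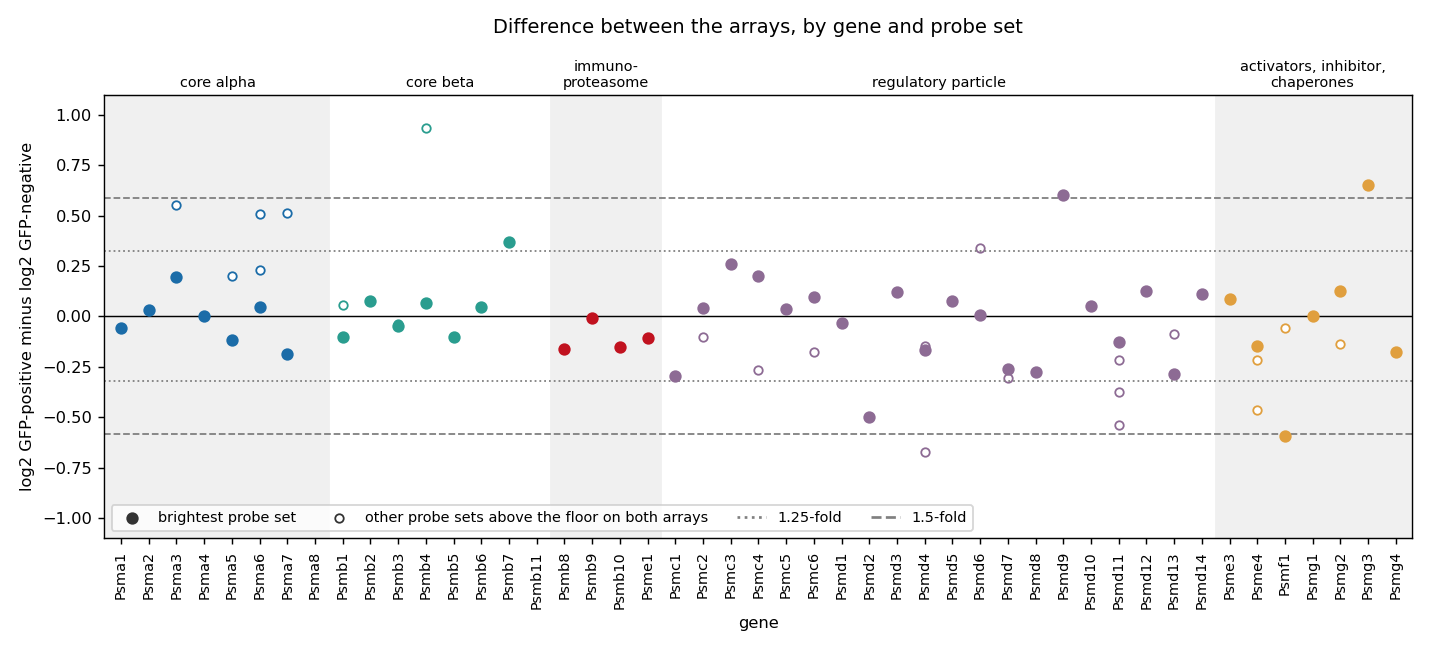
Log2 difference, GFP-positive minus GFP-negative (vertical axis), for each proteasome gene (horizontal axis, by role). Filled points are the brightest probe sets and open points the other probe sets above the floor on both arrays; dotted lines mark 0.32 log2 and dashed lines 1.5-fold. The filled points of Psmd9 and Psmg3 lie above the upper dashed line and that of Psmf1 just below the lower one, while the open points spread more widely than the filled ones.

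The 3 genes past 1.5-fold, 2 of 45 higher and 1 lower, code for factors that assemble or restrain the proteasome. Over the whole array, larger shares passed that fold, 8.76% higher and 7.75% lower. The signals of these 3 genes were all under 500, except for Psmg3 in GFP-positive cells. Across genes above the floor on both arrays the standard deviation of the difference was 0.42, against 0.27 for genes with signals above 500. The part of this spread in the 3 differences was not tested. The other assembly chaperones with Psm names lay within 0.18 log2. Psmd9, a chaperone that helps assemble the base and leaves the finished particle, had 237 in GFP-positive cells, against 156.5 in GFP-negative cells, or 1.52-fold (0.60). After quantile normalization the difference was 0.58, just under 1.5-fold. A further probe set had 89.3 in GFP-positive cells and 13.6, below the floor, in GFP-negative cells, and another was below the floor on both arrays. The other base chaperones Psmd5 (852 in GFP-positive cells and 809 in GFP-negative cells) and Psmd10 (652 in GFP-positive cells and 629.6 in GFP-negative cells) lay at 0.08 and 0.05.

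Chaperones of core assembly are encoded by Psmg1 to Psmg4. Psmg3 had 546 in GFP-positive cells, against 347.5 in GFP-negative cells, or 1.57-fold (0.65), the largest difference of all members in favour of GFP-positive cells. In the whole array, 11.2% of the 8183 genes expressed above the floor in both populations differed by at least as much. A second Psmg3 probe set was below the floor on both arrays (3.3 in GFP-positive cells and 22.7 in GFP-negative cells), and averaging it in turned the gene's difference to −0.49. Psmg4, its partner in a heterodimer, was lower, with 665.5 in GFP-positive cells and 752 in GFP-negative cells (−0.18). Psmg1 had 821 on both arrays, and Psmg2, its own partner, had 282 in GFP-positive cells and 258 in GFP-negative cells (0.13).

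Psmf1, which codes for the inhibitor PI31, had 245 in GFP-positive cells, against 370.1 in GFP-negative cells, or 1.51-fold lower (−0.59). A further probe set gave −0.06 (104 in GFP-positive cells and 108 in GFP-negative cells), and the mean over both was −0.33. Another had 82.6 in GFP-positive cells and 49.0, below the floor, in GFP-negative cells, the opposite direction. By its brightest probe set the difference of Psmf1 was −0.57 after quantile normalization and −0.58 after loess, both just under 1.5-fold. Psme3, a nuclear activator of the core, had 501 in GFP-positive cells and 473 in GFP-negative cells (0.08). Psme4, the large activator PA200, had 774 in GFP-positive cells and 858 in GFP-negative cells (−0.15), with 2 further probe sets above the floor on both arrays at −0.22 and −0.46.

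**Figure D4:**
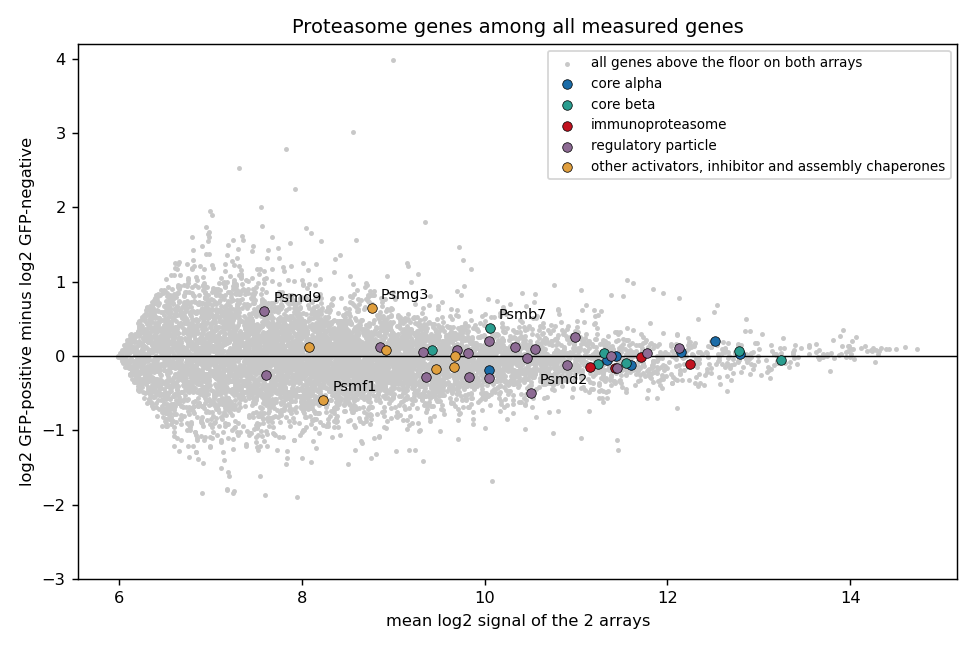
Log2 difference between the arrays (vertical axis) against mean log2 signal (horizontal axis) for all 8183 genes above the floor on both arrays (grey) and for the proteasome genes (coloured by role). Most coloured points lie near 0 at the bright end of the cloud, and the labelled genes, Psmb7, Psmd2, Psmd9, Psmf1 and Psmg3, are those past 0.32 log2.

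Agreement between probe sets of a gene gives a measure of the technical scatter in these values. For 19 proteasome genes with 2 or more probe sets above the floor on both arrays, the standard deviation of log2 differences within a gene was 0.26, over 43 probe sets. The same measure was 0.23 for genes with signals above 500 on both arrays and 0.39 for all genes above the floor. In 12 of the 19 genes the probe sets had one sign and in 7 both signs. Differences of the size seen for most subunits are smaller than this scatter, which holds no variation between animals or sorts.

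Genes that work with the proteasome were next set beside it, from lists of assembly factors, cofactors, shuttle factors, ubiquitin enzymes, class I presentation, interferon control and peptidases. Pomp, which guides the maturation of the core, had 2325 in GFP-positive cells and 2016 in GFP-negative cells (0.21). Nfe2l1, the transcription factor that raises proteasome genes when proteasomes fail, was close to the floor on both arrays and lay at 0.10, with the opposite sign after quantile normalization. The related Nfe2l2 had 173 in GFP-positive cells and 237 in GFP-negative cells (−0.46), with −0.24 for a second probe set, and Mafk, a small partner of both, had 262 in GFP-positive cells and 195 in GFP-negative cells (0.42). That list had 12 measured genes, 7 higher and 5 lower in GFP-positive cells, with a median of 0.10 and none past 1.5-fold.

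Cofactors bound to the regulatory particle went both ways, 4 higher and 5 lower of 9 (5 and 4 after quantile normalization), with a median of −0.02 and none past 1.5-fold. Uchl5, a deubiquitinase of the base, had 674 in GFP-positive cells and 949 in GFP-negative cells, or 1.41-fold lower (−0.49). Usp14, the other one, had 283.5 in GFP-positive cells and 258.5 in GFP-negative cells (0.13), with further probe sets from −0.40 to 0.04. Sem1, a small lid subunit outside the Psm naming scheme, had 2747 in GFP-positive cells and 2113 in GFP-negative cells (0.38), with 0.25 for a second probe set. Adrm1, a ubiquitin receptor, was not analysed here.

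Shuttle factors, which carry ubiquitinated proteins to the proteasome, and the Vcp segregase, which extracts them from complexes, were next examined. Lower signals in GFP-positive cells were found for 10 of 11 genes above the floor, with a median of −0.23, where 5244 of 10231 genes of the whole array and 1586 of the 2657 bright ones were lower. The median was −0.07 with all probe sets averaged, −0.08 with averages of those above the floor on both arrays, and −0.04 for members with signals above 500. After quantile normalization or loess 8 were lower and 3 higher, as Rad23b and Ubxn1, which lay near 0, changed sign. Nploc4, a cofactor of Vcp, was at least 2.43-fold lower, with 60.4 (below the floor) in GFP-positive cells and 153 in GFP-negative cells, and was the one past 1.5-fold. It was singled out after its values were seen. Vcp had 1291 in GFP-positive cells and 1645 in GFP-negative cells (−0.35), with −0.11 for its second probe set. Ufd1, which binds Nploc4, had 261 in GFP-positive cells and 314 in GFP-negative cells (−0.27), but 0.12 for its second probe set. Ubqln1 and Ubqln2 lay at −0.27 and −0.28.

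Among measured ubiquitin-conjugating and activating enzymes, 5 of 9 lay higher in GFP-positive cells and 4 lay lower, and the median was 0.02. Ube2s, which builds chains for the anaphase-promoting complex, had 100.4 in GFP-positive cells and 152.0 in GFP-negative cells (−0.60). Ube2c, which works with the same complex, had 643 in GFP-positive cells and 523 in GFP-negative cells (0.30). Uba6, an activating enzyme, had 225 in GFP-positive cells and 166 in GFP-negative cells (0.44). Cytosolic peptidases, which trim proteasome products, had 3 of 7 genes higher (4 after quantile normalization) and a median of −0.01, with Npepps at −0.35 and Tpp2 at 0.26, and with probe sets of both going both ways.

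Class I presentation genes were measured because the immunoproteasome supplies their peptides. Tap1, which lies beside Psmb9 and codes for a peptide transporter subunit, had 1178 in GFP-positive cells and 1675 in GFP-negative cells, or 1.42-fold lower (−0.51). Tap2, the other transporter subunit, had 314 in GFP-positive cells and 352 in GFP-negative cells (−0.17). B2m, the class I light chain, had 15496 in GFP-positive cells and 13316 in GFP-negative cells (0.22). H2-K1 lay at 0.07, with further probe sets from −0.17 to 0.57. Canx lay at 0.42, with −0.29 for a second probe set, Erap1 at 0.29 and Tapbp at −0.26. In this list 5 genes lay higher in GFP-positive cells and 6 lay lower, with a median of −0.04 and none past 1.5-fold. The split was 7 higher and 4 lower after loess, with a median of 0.01. After quantile normalization it was 6 higher and 5 lower, with H2-K1 among the genes whose sign turned.

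Interferon-gamma induces the immunoproteasome. Of 8 genes of its route 6 were lower in GFP-positive cells and 2 higher, with a median of −0.10, or 5 lower and 3 higher after quantile normalization or loess, as Nlrc5 changed sign. In the whole array 5244 of 10231 genes were lower. The 2 genes past 1.5-fold were Ifng and Ifngr1, both lower, where 7.75% of all genes were. Ifng had 316 in GFP-positive cells, against 667 in GFP-negative cells, or 2.11-fold lower, and the receptor gene Ifngr1 had 345 in GFP-positive cells and 677.5 in GFP-negative cells, or 1.96-fold lower. The downstream regulators Irf1 (2451 in GFP-positive cells and 2632 in GFP-negative cells, −0.10) and Nlrc5 (1410.2 in GFP-positive cells and 1416 in GFP-negative cells, −0.01) were nearly level, as were Psmb8, Psmb9 and Psmb10. B cells also express the immunoproteasome, and the summed signal of 9 B cell markers was 2399.6 in GFP-positive cells and 4668 in GFP-negative cells, with 6 of the 9 below the floor, Cd79a among them. Most of the sum came from Ighm (1881 in GFP-positive cells and 4139 in GFP-negative cells, −1.14), whose other probe sets ran from −1.23 to 0.62. Cd22 lay at −1.26, while Cd79b went the other way, with 222 in GFP-positive cells and 70.8 in GFP-negative cells (1.65). The 6 CD8 T and NK cell markers summed to 959 in GFP-positive cells and 1468 in GFP-negative cells, with Cd8a below the floor on both arrays. Nearly the whole gap was that of Nkg7, with 724 in GFP-positive cells and 1222 in GFP-negative cells. The summed signal of 12 myeloid and dendritic markers was 472 on both arrays, with 8 of the 12 below the floor. Of the 4 others 3 were higher in GFP-positive cells and 1, Mpeg1, was lower (−0.60). None of the markers had a signal of exactly 0, those below the floor included. Summed signals of 11 cycling cell markers were 21814 in GFP-positive cells and 19090 in GFP-negative cells, with 7 markers higher and 4 lower in GFP-positive cells. The 1 past 1.5-fold, Mcm2, was 1.64-fold lower, with 0.18 for its second probe set. The part of any of these in the proteasome values was not tested.

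**Figure D5:**
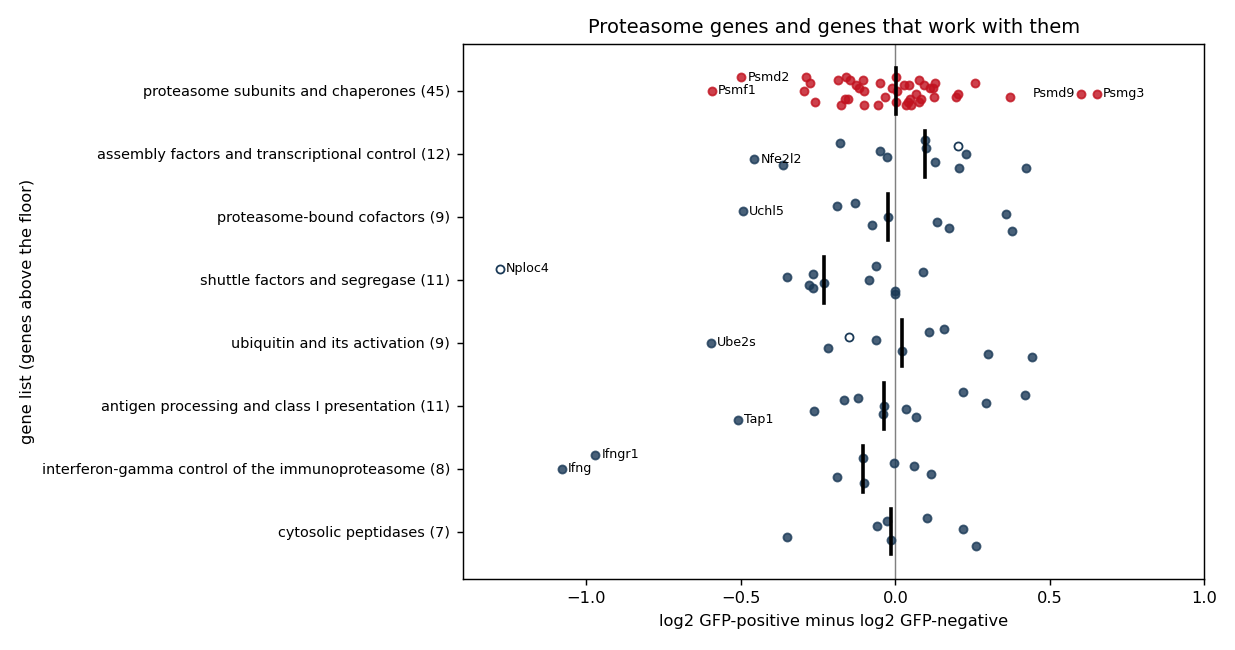
Log2 difference between the arrays (horizontal axis) for the 45 proteasome genes (top row) and for 7 lists of genes that work with them, with the number of genes above the floor in brackets and the list median as a black bar. Open points have 1 signal below the floor, so their size is a lower bound. The proteasome median is close to 0, and the shuttle factor median is −0.23 with the brightest probe sets plotted here; it lies above the cofactor and interferon control medians with all probe sets averaged.

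The name matches that are not subunits went opposite ways. Psmc3ip, a factor of meiotic recombination, had 239 in GFP-positive cells, against 118 in GFP-negative cells, or 2.03-fold (1.02), and its second probe set gave 0.51. Among all genes above the floor on both arrays 2.49% differed by at least as much. Psme3ip1 had 559 in GFP-positive cells and 755 in GFP-negative cells (−0.43).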

How the data were processed

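Total RNA of 2 sorted cell populations was hybridised to 2 Affymetrix Mouse Genome 430 arrays, 1 per group, and array titles gave the groups. The authors deposited a linear intensity for every probe set, summarised by MAS5 according to the submitters' processing notes, with settings and detection calls not given in the sources used here. Both arrays had a 2% trimmed mean of 150.0, so no further scaling was applied.

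Of 45101 probe sets, 34958 carried 1 gene symbol, 932 several and 9211 none, and the 64 control probe sets entered no comparison. Gene identifiers of 34741 probe sets matched the RefSeq table of GRCm38.p6, and 0 symbols were altered. A gene was represented by its brightest probe set by mean log2 signal. The floor of 63.16 was the 90th percentile of the signals of 66 tissue-restricted genes (110 probe sets), and lower signals were raised to it before log2. Genes with only 1 signal above it give lower bounds.

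With 1 array per group there was no test, and genes were counted past 1.5-fold, with 2-fold and 0.32 log2 beside it. All members could be named. From each partner list, up to 4 genes above the floor on both arrays with the largest difference could be named. Where none passed 1.5-fold the brightest could be named too, with a few fixed names. Not every such gene is described. Members and lists were chosen with earlier results of these data known. Alternatives changed the normalization, floor, probe set rule and fold. Calculations used Python 3.11.15, pandas 2.3.3, numpy 2.4.6 and statsmodels 0.14.6 and were tested on simulated data. The number of arrays limits the precision.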

Additional observations from a re-analysis of the deposited data

How the results depend on the processing

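The median difference of all subunits and chaperones lay between −0.0047 and 0.05 log2 over 8 alternatives, that of the immunoproteasome between −0.13 and −0.06, and that of the shuttle factors between −0.25 and −0.04. All 47 member values above the floor, name matches included, moved by less than the scatter between probe sets under quantile normalization or loess. Without a floor they could not change, since both signals of each lay above it. Doubling the floor altered only Psmc3ip, from 1.02 to 0.92. Averaging all probe sets of a gene, dim ones included, moved 12 of 47 member values, turned Psmg3 to −0.49, brought the median of the activator, inhibitor and chaperone group to −0.49 and left 62.2% of proteasome genes and 58.7% of all genes within 0.32 log2. Averaging only probe sets above the floor on both arrays, moved 3 and left 82.2% of proteasome genes and 65.2% of all genes; that alternative and the one of signals above 500 were chosen after seeing the data. Members higher in GFP-positive cells by 1.5-fold or more numbered 1 after quantile normalization, 0 at 2-fold and 0 with signals above 500. Members at least 1.5-fold lower numbered 0 after quantile normalization, after loess, with averaged probe sets above the floor and with signals above 500, 2 without a floor and 5 with all probe sets averaged, and 0 at 2-fold and 2 at 0.32 log2. Over all genes, 365 were higher and 441 lower with a doubled floor, 4785 and 3678 without a floor, 180 and 175 at 2-fold, 2015 and 2082 at 0.32 log2, 510 and 509 with averaged probe sets above the floor, and 43 and 70 with signals above 500. Leaving out probe sets that can match several transcripts moved 2 of 38 member values, Psma3 to 0.55 and Psmc3ip to 0.51. Causes were not tested. No paired analysis was possible because each group holds 1 array.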
